A study of Mus musculus with 18 samples.

Results

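The 10 genes described here, Acta2, Tagln, Cnn1, Myh11, Myl9, Tpm1, Tpm2, Des, Lmod1 and Smtn, encode the contractile apparatus of smooth muscle cells and myofibroblasts. They were chosen by name for that function from the 27179 genes in the expression table, and all 10 were found there and passed the filter on low values that 14353 genes passed. Their levels were measured by RNA sequencing in bone marrow-derived mesenchymal stem cells (MSCs), the adherent stromal cells of the marrow, from C57BL6 mice. There were 3 groups of 6 libraries each: MSCs of young mice (6 weeks of age), MSCs of old mice (18 to 24 months of age), and rejuvenated old MSCs, which are old MSCs kept for 7 days in indirect co-culture with young MSCs across a membrane with 0.4 µm pores. Libraries of all 3 groups were of day 7, so the old MSCs were also cultured for 7 days, without young MSCs. Cells of all groups were used at passages 2 to 5. Old MSCs paired with old MSCs across such a membrane were not analysed here, so the presence of a second cell layer and the age of its donor cannot be told apart. The labels number the 6 libraries in each group as biological replicates, but do not say if they are of different animals or of cultures of the same cells. The p-values then measure only the spread between these libraries, which may not be that between animals.

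Smooth muscle contracts when calcium activates myosin light chain kinase, which phosphorylates the myosin regulatory light chain and lets smooth muscle myosin pull on actin filaments. Tropomyosins, calponin and transgelin line those filaments, leiomodin starts new ones, and desmin filaments tie the apparatus to the rest of the cell. Many of these genes carry CArG boxes, the DNA element bound by serum response factor (Srf). The partners of Srf are myocardin (Myocd) and the myocardin-related factors (Mkl1 and Mkl2). The myocardin-related factors respond to the state of actin. Fibroblasts and marrow stromal cells on stiff plastic or under transforming growth factor beta also make part of this set, Acta2 first among them, and are then called myofibroblasts.

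The promoters of Myl9 and Acta2 are shown because Myl9 was the member with a CArG box in its strict form, and both had matches to a looser form that allows 1 inner G or C. The sequences are RefSeq's for the mouse build GRCm38.p6, read 5′ to 3′ on the strand of the gene, and capitals mark the match. The first line holds the strict form and the other 3 the looser form alone.
Myl9, strand +, chr2:156775293-156775322: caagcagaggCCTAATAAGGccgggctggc
Myl9, strand +, chr2:156775355-156775384: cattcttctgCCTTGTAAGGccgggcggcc
Acta2, strand -, chr19:34255438-34255467: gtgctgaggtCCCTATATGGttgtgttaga
Acta2, strand -, chr19:34255388-34255417: cgtctttgctCCTTGTTTGGgaagcgagtg
The CArG box searched on both strands is CC, then 6 bases that are each A or T, then GG. In windows from 250 bases before to 50 bases after each start, this form was in 535 of 32851 promoters (1.63%) and in 1 of the 8 member promoters in the table, that of Myl9, where its first base lay at position -161 from the start. When 1 of the 6 inner bases could be G or C, a form chosen after the strict one had been counted, 3280 promoters (9.98%) held a match, and so did those of Myl9 and Acta2. In this looser form Myl9 had a second match at -99, and Acta2 had matches at -84 and -34. The starts used for Acta2, Myl9 and Tpm1 lay inside the gene spans given below. Both of these Acta2 matches fell within that gene's span, and those of Myl9 fell before its span. The other motifs searched on both strands were TATAAA, in 13.6% of all promoters and 0 of the 8, and CATTCC, the element of the TEAD factors, in 14.7% of all and 4 of the 8 (Lmod1, Tpm1, Smtn and Acta2). These matches describe letters in a short window and were not tested for binding. Tagln and Myh11 were not matched in the promoter table.

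The files gave 22936251 to 25648769 reads per young library, 24965971 to 29559194 per old library and 26018046 to 29155223 per rejuvenated old library. Values below are normalized counts, that is, reads divided by a size factor of the library, given as mean ± SD (n = 6). The study's methods describe male mice at both ages. The summed level of 4 genes of the Y chromosome (Ddx3y, Eif2s3y, Kdm5d and Uty) was 0 to 5.1 in the young libraries, 5034.7 to 5603.6 in the old and 4897.6 to 5979.9 in the rejuvenated old, so the young libraries went against that description. Xist, the transcript of the inactive X chromosome, was also low, at 21.23 to 41.19 in the young libraries and 1.97 to 14.43 in the old. All 6 young libraries shared this, so no comparison with young MSCs could be made without it, and its part in the results was not tested. The median change between young and old MSCs also differed by chromosome, and it is given for chromosomes 1, 9 and 16, which carry 6 of the 10 genes. The bulk libraries hold all cells of a culture, so fewer cells of a type and less RNA per cell cannot be told apart.

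Markers of other cell types were read in the same libraries. Beside the counts of called markers below, 44.1% of all tested genes were called lower and 41.6% higher in young than old MSCs. In rejuvenated old compared with old MSCs these shares were 20.6% lower and 21.0% higher. The 8 macrophage markers summed to 920.6 to 1041.3 in young MSCs, 12904.4 to 16071.1 in old MSCs and 12666.3 to 15420.7 in rejuvenated old libraries, and all 8 were lower in young than old MSCs, in the same direction as most of the contractile genes. The part of those cells in the contractile results was not tested. Between rejuvenated old and old MSCs 1 of the 8 was called, and it was lower (Cd68, by 0.32 on the log2 scale, 1229 to 983 normalized counts). The 7 pericyte markers summed to 11237.9 to 11889.0 in young MSCs, 22123.7 to 23605.4 in old MSCs and 19849.5 to 21815.0 in rejuvenated old libraries, but single markers differed in direction. Of the 5 tested, 3 were lower in young than old MSCs, among them Pdgfrb and Notch3 with most of the sum, and 2 were higher (Cspg4, 7.27-fold, and Mcam, 1.52-fold). In rejuvenated old compared with old MSCs 0 were higher, 2 lower and 3 not called. The 8 stromal markers summed to 301803.2 to 327609.8, 225708.9 to 241897.1 and 173012.7 to 205928.4, with 5 higher and 3 lower in young than old MSCs, and 2 higher, 3 lower and 3 not called in rejuvenated old compared with old. Of the surface markers that define MSCs, Thy1 had 161 to 222 reads per young library but 0 to 3 per old and 0 to 21 per rejuvenated old library, while Eng was 44.7-fold lower in young than old MSCs. The part of these differences in the contractile results was not tested. Of 8 skeletal muscle markers, Myod1 and Pax7 were at 0 in every library and Myog, Myf5, Ckm and Actn2 had at most 3 reads in any. The list summed to 2.0 to 7.5 in young, 177.2 to 229.9 in old and 90.6 to 146.5 in rejuvenated old libraries, nearly all of it Acta1, the 1 marker of the list that was tested, which was lower in young than old MSCs (log2 difference -5.41) as most of the contractile genes were. Endothelial (5 genes) and cardiac muscle (4 genes) markers summed to at most 210.5 and 28.9. The 6 smooth muscle markers, which include members of the contractile set, summed to 6146.3 to 6703.5, 7994.2 to 9061.6 and 8860.9 to 9505.6. Myh11 and Myocd, which mark differentiated smooth muscle, were low or near 0 in all groups, as given below. The rest of that list was higher, in old MSCs at 3648 (Smtn), 2153 (Cnn1), 2106 (Lmod1) and 682 (Actg2) normalized counts. Of the 5 smooth muscle markers tested, 4 were lower and 1 higher in young than old MSCs. In rejuvenated old compared with old MSCs 1 of them was higher, 0 lower and 4 not called. Acta2 had the most counts per kb of the contractile set.

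Most of the contractile genes were lower in young than in old MSCs. Of the 10 genes, 8 were lower and 2 (Tpm2 and Smtn) were higher, and Des, Lmod1 and Acta2 differed most among those that were lower (limma on log2 of the normalized count plus 1, Benjamini-Hochberg adjusted p under 0.05 over all genes tested). Over all genes, 44.1% were called lower and 41.6% higher in this comparison. The median log2 difference of young minus old was -0.86 over the 10 genes and -0.02 over all genes.

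In rejuvenated old compared with old MSCs, 4 of the 10 genes were higher (Myl9, Tpm2, Tagln and Cnn1), 0 were lower and 6 did not pass the test, against 21.0% of all genes called higher and 20.6% called lower. In each of the 4 the lowest rejuvenated old library was above the highest old library. This was so for 4 of the 10 genes and for 1487 of the 14353 tested genes (10.4%), of which 3016 were called higher. The 4 were already picked by their calls on the same values, so this is no further support. The median log2 difference was 0.05 over the 10 genes and 0.01 over all genes. Compared with young MSCs, rejuvenated old MSCs had 8 of the 10 genes higher and 2 lower, against 44.1% and 41.5% of all genes. The comparisons share libraries, so each is given by its own values.

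**Figure D1:**
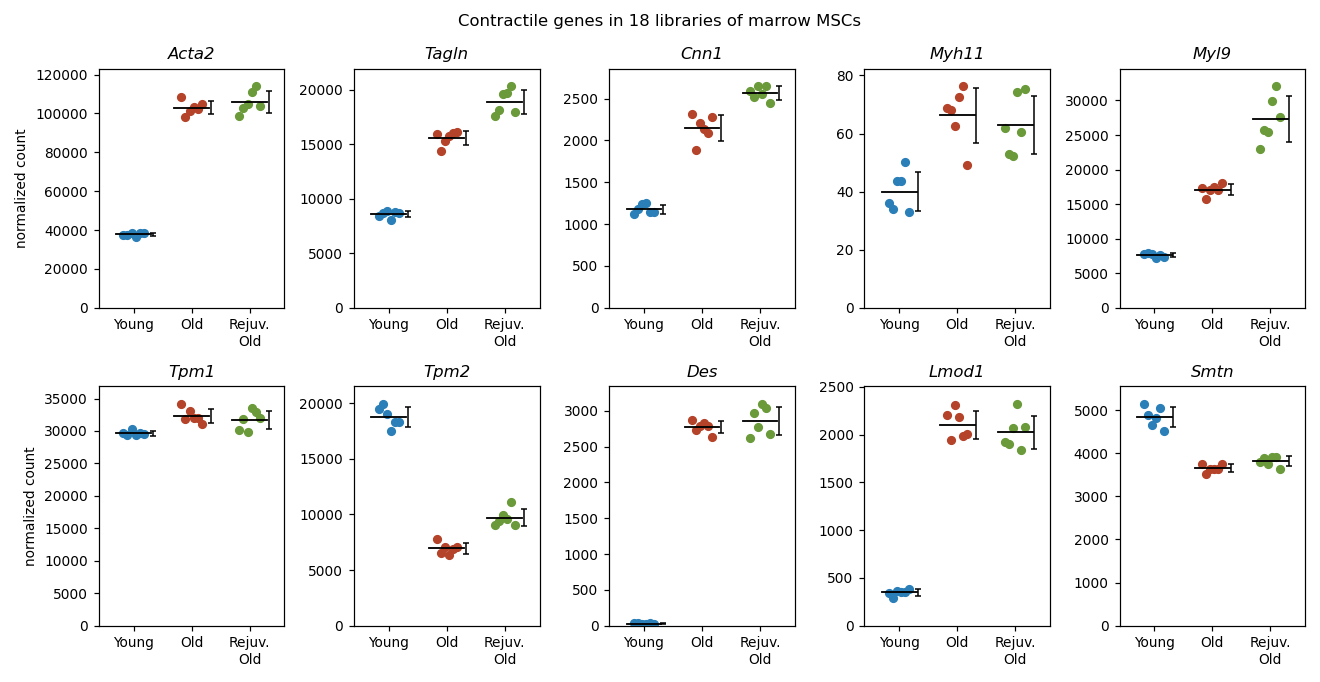
Normalized counts (vertical axis, linear from 0, a separate scale for each gene) of the 10 contractile genes in the 18 libraries. Points are libraries in order of replicate number, horizontal lines are group means and bars beside them are 1 SD (n = 6). Acta2 stood at 37858 ± 805 in young MSCs, 103005 ± 3438.54 in old MSCs and 105923 ± 5688 in rejuvenated old MSCs, while Tpm2 was highest in young MSCs.

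Acta2 (Entrez gene 11475, chromosome 19, 34240336 to 34255585 on GRCm38.p6) encodes smooth muscle alpha actin. Its young libraries ranged from 36432.7 to 38525.3 normalized counts (median 38033.3), its old libraries from 98042.8 to 108342.2 (median 102742.9) and its rejuvenated old libraries from 98499.7 to 113966.6 (median 104462.3). Every old library was above every young library, and the old and rejuvenated old libraries overlapped. The young level was 2.72-fold lower than the old (log2 difference -1.44, SE 0.04, limma adjusted p = 6.18e-20). Rejuvenated old minus old was 0.04 on the log2 scale (95% interval -0.04 to 0.12, limma adjusted p = 0.446), and under quantile normalization it was 0.12 (limma adjusted p = 0.00777). Acta2 made up 0.149% of all counts in young MSCs, 0.384% in old MSCs and 0.390% in rejuvenated old MSCs. Actin genes are nearly identical in their coding sequence, so reads may be shared among Acta2, Actg2, Acta1 and Actc1 where the counting did not separate them.

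Tagln (21345, chromosome 9, 45929628 to 45936058) encodes transgelin, an actin-binding protein also called SM22 alpha. Its young libraries held 8087 to 8851 normalized counts (median 8693), its old libraries 14402 to 16083 (median 15854) and its rejuvenated old libraries 17572 to 20302 (median 18869). The 3 groups did not overlap at any point, and the level was highest in rejuvenated old and lowest in young libraries. Tagln was 1.82-fold lower in young than old MSCs (log2 difference -0.86, SE 0.04, limma adjusted p = 9.37e-16) and 1.21-fold higher in rejuvenated old than old MSCs (0.28, SE 0.04, limma adjusted p = 4.77e-06).

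Cnn1 (12797, chromosome 9, 22099221 to 22109221) encodes calponin 1, which binds actin and inhibits the myosin ATPase. It ran from 1115 to 1253 normalized counts in young (median 1161), 1890 to 2312 in old (median 2174) and 2443 to 2647 in rejuvenated old libraries (median 2574). As for Tagln, no library of one group reached another group. The log2 difference was -0.87 for young minus old (SE 0.04, limma adjusted p = 8.45e-15) and 0.26 for rejuvenated old minus old (SE 0.04, limma adjusted p = 5.51e-05), a 1.19-fold difference. Chromosome 9, which carries Tagln, Cnn1 and Tpm1, had a median log2 difference of 0.20 for young minus old over its 770 tested genes, so these genes lay below the median of their own chromosome.

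Myl9 (98932, chromosome 2, 156775408 to 156781657) encodes the regulatory light chain of smooth muscle and nonmuscle myosin. Young libraries held 7189 to 7868 normalized counts (median 7693), old libraries 15769 to 18002 (median 17208) and rejuvenated old libraries 22906 to 32055 (median 26693). The groups were apart, and the rejuvenated old libraries spread most, with a coefficient of variation of 12.1% against 4.35% in old and 3.61% in young libraries. Myl9 showed the largest difference of the 10 genes between rejuvenated old and old MSCs, 1.59-fold higher (log2 difference 0.67, SE 0.06, limma adjusted p = 4.55e-09). By the size of that difference it ranked 880 among the 14353 genes tested. It was 2.26-fold lower in young than old MSCs (-1.17, SE 0.06, limma adjusted p = 6.07e-15).

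Myh11 (17880, chromosome 16, 14194527 to 14292188) encodes the heavy chain of smooth muscle myosin, and its level was low in all groups. It had 32 to 47 reads per young library, 51 to 80 per old library and 55 to 80 per rejuvenated old library. In normalized counts these were 32.95 to 50.1 (median 39.7), 49.1 to 76.3 (median 68.4) and 52.3 to 75.5 (median 61.2). The young and old libraries overlapped, and so did the old and rejuvenated old. The log2 difference of young minus old was -0.72 (SE 0.14, limma adjusted p = 5.45e-05). The median of the 446 genes tested on chromosome 16 was -0.75, so Myh11 differed from its chromosome's median by 0.03, and with each gene centred on its chromosome the call was lost (0.03, limma adjusted p = 0.819). Rejuvenated old minus old was -0.07 (95% interval -0.36 to 0.21, limma adjusted p = 0.706).

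Tpm2 and Tpm1 encode tropomyosins, which lie along actin filaments and control how myosin reaches them. Tpm2 (22004, chromosome 4, 43513726 to 43523583) was highest in young libraries at 17496 to 19904 normalized counts (median 18651), lowest in old libraries at 6362 to 7829 (median 6973) and intermediate in rejuvenated old libraries at 9062 to 11126 (median 9475). The 3 ranges were separate. Tpm2 was 2.70-fold higher in young than old MSCs (log2 difference 1.43, SE 0.05, limma adjusted p = 1.19e-17) and 1.39-fold higher in rejuvenated old than old MSCs (0.48, SE 0.05, limma adjusted p = 1.01e-07). It was the one gene of the 10 that was called higher in both young and rejuvenated old than in old MSCs.

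Tpm1 (22003, chromosome 9, 67022590 to 67049672) differed little among the groups. It held 29329 to 30328 normalized counts in young (median 29574), 31058 to 34126 in old (median 32039) and 29792 to 33470 in rejuvenated old libraries (median 31911). The young libraries lay below the old without overlap, and the rejuvenated old overlapped both. The log2 difference of young minus old was -0.13 (SE 0.03, limma adjusted p = 0.00119), and it missed the threshold when all libraries were scaled to the same total (-0.05, limma adjusted p = 0.113). It also missed it under quantile normalization (-0.03, limma adjusted p = 0.308). Rejuvenated old minus old was -0.03 (95% interval -0.10 to 0.04, limma adjusted p = 0.48), and under quantile normalization it passed (-0.09, limma adjusted p = 0.0331). Gene counts cannot separate the muscle and nonmuscle transcripts that Tpm1 and Tpm2 make by alternative splicing.

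Des (13346, chromosome 1, 75360292 to 75368579) encodes desmin, the intermediate filament protein of muscle. It had 16 to 35 reads per young library, 2584 to 3108 per old library and 2542 to 3262 per rejuvenated old library. In normalized counts the young libraries held 17.9 to 38.1 (median 29.4), the old 2637 to 2875 (median 2787) and the rejuvenated old 2618 to 3091 (median 2867). The old and rejuvenated old libraries overlapped and the young lay far below both. Des was 97.1-fold lower in young than old MSCs (log2 difference -6.60, SE 0.11, limma adjusted p = 1.22e-23), rank 241 of 14353 by size, and rejuvenated old minus old was 0.04 (95% interval -0.19 to 0.27, limma adjusted p = 0.792).

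Lmod1 (93689, chromosome 1, 135324813 to 135368065) encodes leiomodin 1, which nucleates actin filaments in smooth muscle. Its libraries held 285 to 387 normalized counts in young (median 355), 1942 to 2307 in old (median 2096) and 1845 to 2320 in rejuvenated old MSCs (median 1999.5). The young libraries were apart from both other groups, which overlapped. Lmod1 was 6.06-fold lower in young than old MSCs (log2 difference -2.60, SE 0.06, limma adjusted p = 1.69e-20), and rejuvenated old minus old was -0.06 (95% interval -0.19 to 0.08, limma adjusted p = 0.514).

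Des and Lmod1 both lie on chromosome 1, where the median log2 difference of young minus old was -0.69 over 800 genes. Less that median, the differences were -5.91 for Des and -1.91 for Lmod1. The 10 tested genes nearest to Des, 5 on each side, ran from -2.80 (Ptprn) to 2.24 (Tuba4a) with a median of -0.70. Around Lmod1 all 10 nearest genes were below 0, from -6.25 (Ptprv) to -1.09 (Timm17a), with a median of -1.71, and around Myh11 all 10 were below 0, from -1.76 (Pdxdc1) to -0.46 (Ntan1). Des therefore lay outside the range of its neighbours, and Lmod1 and Myh11 lay inside theirs. Lmod1 was below all of its neighbours except Ptprv, Ptpn7 (-5.59) and Phlda3 (-3.45). In rejuvenated old minus old the medians around the 3 genes were -0.05, -0.11 and -0.04.

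**Figure D2:**
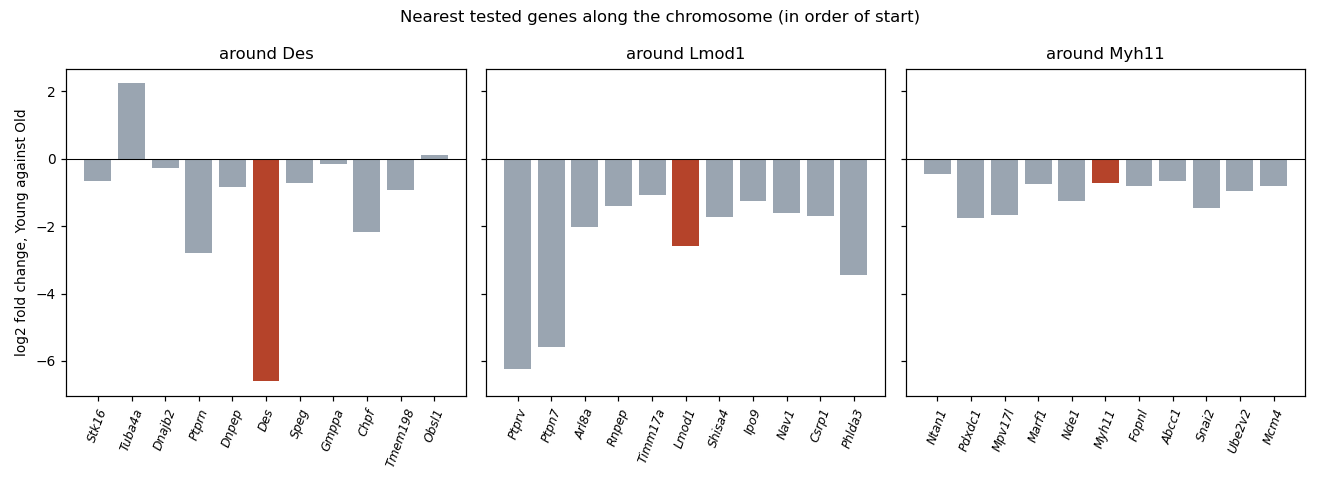
Log2 fold change of young against old MSCs (vertical axis) for Des, Lmod1 and Myh11 (red bars) and the 5 nearest tested genes on either side of each (grey bars, in order of start along the chromosome). Des at -6.60 falls below all of its neighbours, while Lmod1 at -2.60 and Myh11 at -0.72 fall within the range of theirs.

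Smtn (29856, chromosome 11, 3517522 to 3539292) encodes smoothelin, a protein of contractile filaments. It held 4513 to 5136.5 normalized counts in young (median 4855), 3508 to 3754 in old (median 3627) and 3626 to 3922 in rejuvenated old libraries (median 3848). The young libraries were above all others, and the old and rejuvenated old libraries overlapped. Smtn was 1.33-fold higher in young than old MSCs (log2 difference 0.41, SE 0.03, limma adjusted p = 4.28e-11), and rejuvenated old minus old was 0.07 (SE 0.03, limma adjusted p = 0.109).

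Compared with young MSCs, the rejuvenated old MSCs had higher levels of Des (log2 difference 6.64), Lmod1 (2.54), Myl9 (1.84), Acta2 (1.48), Tagln (1.14), Cnn1 (1.12), Myh11 (0.64) and Tpm1 (0.09). Tpm2 (-0.95) and Smtn (-0.34) were lower. The difference of Myh11 turned to -0.12 with centring by chromosome and was then not called (limma adjusted p = 0.444). That of Tpm1 was also not called under quantile normalization, where it turned to -0.05 (limma adjusted p = 0.135), with libraries scaled to the same total (0.0047, limma adjusted p = 0.886) or the same 75th percentile (0.06, limma adjusted p = 0.0762), or at a threshold of 0.01. The groups did not overlap in 9 of the 10 genes, the exception being Tpm1, and over all tested genes they did not overlap in 70.5%. For Tagln, Cnn1 and Myl9 the rejuvenated old level was thus the highest of the 3 groups in every library.

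**Figure D3:**
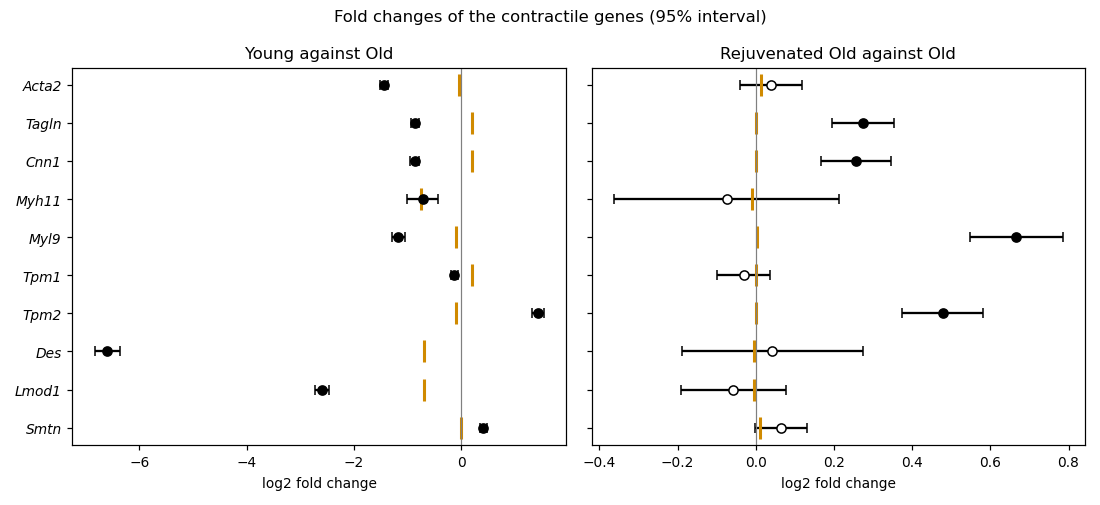
Log2 fold changes (horizontal axis, a separate scale for each panel) of the 10 contractile genes between young and old MSCs (left) and between rejuvenated old and old MSCs (right), with 95% intervals. Filled points passed the limma test at an adjusted p of 0.05, open points did not, and vertical ticks mark the median of all tested genes on the same chromosome. On the left 8 genes lie below 0 and Myh11 lies on its chromosome's tick, and on the right Myl9 (0.67), Tpm2 (0.48), Tagln (0.28) and Cnn1 (0.26) are filled.

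Levels can be set beside each other only per length, here as normalized counts per kb of exon. The length was that of all annotated exons of a gene together, which can exceed that of the transcripts present. The ranks and the family shares below depend on it. In young MSCs the order was Acta2 (18604 ± 396), Tpm2 (7868 ± 371), Myl9 (6722 ± 243), Tpm1 (6202 ± 75.8), Tagln (5379 ± 179), Smtn (1243 ± 60.3), Cnn1 (467 ± 22.2), Lmod1 (88.0 ± 8.65), Des (9.35 ± 2.33) and Myh11 (6.05 ± 1.03), all per kb. Of these neighbours, Des and Myh11 overlapped in their ranges. In old MSCs the order was Acta2 (50617 ± 1690 per kb), Myl9, Tagln, Tpm1, Tpm2, Smtn, Des, Cnn1, Lmod1 and Myh11 (10.02 ± 1.45 per kb). Smtn (936 per kb), Des (916 per kb) and Cnn1 (854 per kb) overlapped as neighbours there. In rejuvenated old MSCs the order was the same except that Cnn1 (1018 per kb) came before Smtn (980 per kb) and Des (945 per kb), which again overlapped as neighbours. Tpm2 thus went from rank 2 in young to rank 5 in old and rejuvenated old MSCs, and Des from rank 9 to ranks 7 and 8.

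Within their families the members took different shares of the summed counts per kb. Acta2 was 27.7% ± 0.38 of the actins in young MSCs, 41.7% ± 0.79 in old MSCs and 38.1% ± 0.85 in rejuvenated old MSCs (SD, n = 6), and the rest was nearly all Actb, the beta actin of all cells, at 70.6%, 56.5% and 60.6%. Tpm2 was 34.5% ± 1.35 of the tropomyosins in young MSCs, 10.9% ± 0.71 in old MSCs and 12.98% ± 0.90 in rejuvenated old MSCs. Over the same groups Tpm4, a nonmuscle tropomyosin, was 36.1%, 58.0% and 60.9%. Tagln was 87.4% ± 0.61, 75.3% ± 0.68 and 77.2% ± 0.76 of the transgelins. Cnn1 was a small part of the calponins, at 2.72% ± 0.13, 4.14% ± 0.23 and 4.37% ± 0.21, with Cnn2 the largest at 53.9%, 57.8% and 64.9%. The share of Acta2 was lower in every rejuvenated old library (36.7% to 39.0%) than in any old library (40.6% to 42.6%), with the level of Actb higher and that of Acta2 not called as different.

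**Figure D4:**
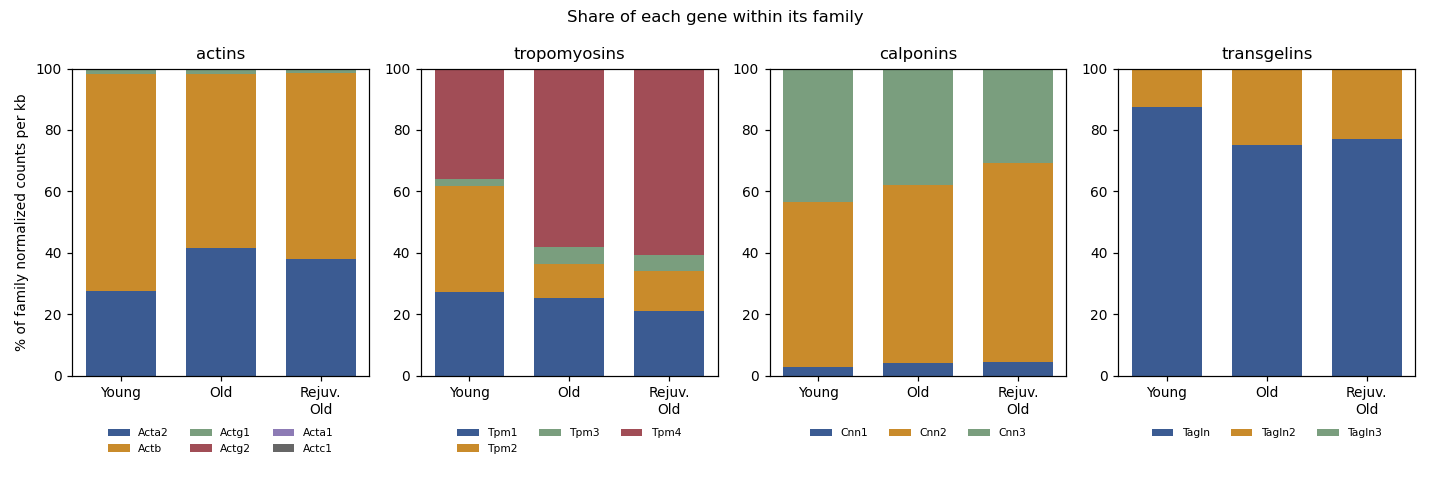
Share of each gene in the summed normalized counts per kb of its family (vertical axis, percent), as stacked bars of group means (n = 6) for actins, tropomyosins, calponins and transgelins. Tpm2 takes 34.5% of the tropomyosins in young and 10.9% in old MSCs, and Acta2 takes 27.7% of the actins in young and 41.7% in old MSCs.

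The other genes of the contractile apparatus were followed in a list of 38 partners, of which 32 passed the filter on low values. Between young and old MSCs, 27 of the 32 were lower and 5 higher in young (median log2 difference -0.96). Between rejuvenated old and old MSCs, 9 were higher, 13 lower and 10 not called (median -0.02), and between rejuvenated old and young MSCs 26 were higher, 4 lower and 2 not called (median 1.04). The background shares above apply to these counts too.

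Among the actins, Actg2, the enteric smooth muscle gamma actin, was 76.1 ± 6.09 normalized counts in young MSCs, 682 ± 65.7 in old MSCs and 651 ± 54.3 in rejuvenated old MSCs. It followed Acta2 in being lower in young (log2 difference -3.15, limma adjusted p = 3.57e-21) and not called between rejuvenated old and old (-0.06, limma adjusted p = 0.506). Acta1, skeletal muscle actin, was 4.17 ± 2.21, 200 ± 20.3 and 120 ± 20.4, and it was lower in rejuvenated old than old MSCs (-0.74, limma adjusted p = 0.0157). Actb was lower in young (-0.53) and higher in rejuvenated old (0.27) than in old MSCs. Actg1, the other nonmuscle actin, was lower in both (-0.54 and -0.39). Actc1, cardiac actin, was at 0 in young and at most 6.52 elsewhere, and was not tested.

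Tpm3 was lower in young than old MSCs (log2 difference -1.58) and not called between rejuvenated old and old (0.02), and Tpm4 was lower in young (-0.91) and higher in rejuvenated old (0.30). Cnn2, a nonmuscle calponin, was lower in young (-0.37) and higher in rejuvenated old than old MSCs (0.34), as Cnn1 was, while Cnn3 was lower in both (-0.08 and -0.13). Tagln2 was 1266 ± 68.3, 5269 ± 151 and 5738 ± 310 normalized counts in young, old and rejuvenated old MSCs, lower in young (-2.06) and higher in rejuvenated old (0.12) than in old. Tagln2 lies on chromosome 1, and less that chromosome's median of -0.69 its difference between young and old was -1.37. Tagln3, on chromosome 16, averaged at most 20.9 normalized counts. Its log2 difference of young minus old was -1.11 (SE 0.32, limma adjusted p = 0.00306) with overlapping libraries, and -0.36 less the chromosome's median of -0.75, and rejuvenated old minus old was 0.14 (not called). Lmod2, Lmod3, Smtnl1 and Smtnl2 were near 0 and were not tested.

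Mylk, the kinase that phosphorylates the light chain encoded by Myl9, was 557 ± 39.2 normalized counts in young MSCs, 5070 ± 263 in old MSCs and 6033 ± 544 in rejuvenated old MSCs. It was 9.10-fold lower in young (log2 difference -3.19, limma adjusted p = 1.6e-23), and it lies on chromosome 16, where the median was -0.75. It was 1.19-fold higher in rejuvenated old than old MSCs (0.25, limma adjusted p = 0.000871), though those groups overlapped. Cald1, caldesmon, was lower by 0.22 on the log2 scale in both young and rejuvenated old than in old MSCs. Vim, the vimentin of mesenchymal intermediate filaments, was lower in young (-1.08) and higher in rejuvenated old MSCs (0.27). Of the partners called between rejuvenated old and old MSCs, those with the largest differences were Synm, which encodes the intermediate filament protein synemin (-1.30, from 432 ± 22.7 to 176 ± 16.2 normalized counts), and Fhl1, a LIM domain protein of muscle (1.13, from 161 ± 16.7 to 357 ± 68.7).

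Of 24 regulators of these genes in the table, 23 were tested. Young MSCs had 15 lower and 8 higher than old MSCs (median log2 difference -0.32), rejuvenated old MSCs had 4 higher, 10 lower and 9 not called against old (median -0.09), and against young they had 14 higher, 7 lower and 2 not called (median 0.30). Over all genes, 41.6% were higher and 44.1% lower in young than old MSCs, 21.0% and 20.6% in rejuvenated old than old, and 44.1% and 41.5% in rejuvenated old than young. Srf was 2298 ± 124 normalized counts in young MSCs, 2681 ± 73.7 in old MSCs and 2426 ± 152 in rejuvenated old MSCs, lower in both than in old (-0.22, limma adjusted p = 2.45e-05, and -0.15, limma adjusted p = 0.00596). Mkl1 was lower in young (-0.24) and not called in rejuvenated old MSCs (-0.07, limma adjusted p = 0.0775). Mkl2, on chromosome 16, was lower in young (-1.20, and -0.45 less the chromosome's median) and in rejuvenated old MSCs (-0.20). Myocd averaged 0.33 normalized counts in young MSCs, 2.05 in old MSCs and 4.48 in rejuvenated old MSCs and was not tested.

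Of the regulators called between rejuvenated old and old MSCs, Klf4 and Tgfb2 had the largest differences. Klf4, a zinc finger factor that represses smooth muscle genes, was 1487 ± 130 normalized counts in young MSCs, 969 ± 55.0 in old MSCs and 1777 ± 100 in rejuvenated old MSCs, higher than in old in both young (log2 difference 0.61) and rejuvenated old (0.87, limma adjusted p = 1.14e-11). Tgfb2, a ligand of the transforming growth factor beta family, was 491 ± 35.3, 2231 ± 180 and 1470 ± 109, lower than in old in both (-2.18 and -0.60). It lies on chromosome 1, and less that chromosome's median the first difference was -1.49. The listed genes of transforming growth factor beta signalling differed in direction between young and old MSCs. Tgfb1, Tgfb3, Tgfbr1, Smad2 and Smad4 were also lower in young, while the receptor gene Tgfbr2 (log2 difference 3.29) and Smad3 (1.31) were higher.

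The 6 myofibroblast markers include Acta2. In young compared with old MSCs 4 were higher and 2 lower, and in rejuvenated old compared with old MSCs 1 was higher, 3 lower and 2 not called, against 41.6% of all genes higher and 44.1% lower in the first comparison and 21.0% and 20.6% in the second. Postn, the matrix protein periostin, was lower in young (log2 difference -3.47) and in rejuvenated old (-0.997) than in old MSCs. Fn1, fibronectin, on chromosome 1, was higher in young (0.42, and 1.11 less the chromosome's median) and lower in rejuvenated old MSCs (-0.27), and Fap, fibroblast activation protein, likewise (0.51 and -0.59). Lox, a collagen crosslinking enzyme, was higher in both (0.34 and 0.41). Cthrc1, 1 of the 4 markers higher in young, had a log2 difference of 4.33 there and was not called in rejuvenated old MSCs (-0.10). It had 25 to 39 reads per young library, but at most 2 per old library and 3 per rejuvenated old library. The size of the 4.33 therefore depends on the 1 added to each count before the log2. The reads were too few to compare its rejuvenated old level with the old. The summed level of the list overlapped among the 3 groups, at 288351.0 to 318386.4 in young MSCs, 301043.2 to 316839.3 in old MSCs and 268486.8 to 306789.3 in rejuvenated old libraries. Nearly all of the sum was Fn1, Acta2 and Lox. Between young and old MSCs Fn1 (218867 and 163951 normalized counts) and Acta2 (37858 and 103005) differed in opposite directions. The overlap of the sums therefore does not mean that the single markers were at equal levels.

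Libraries of the same group also differed from each other, and some of the 10 genes shared these deviations. Deviations from the group mean on the log2 scale were set side by side over the 18 libraries, as a description and without a test, since all genes of a library share its size factor and composition. With Acta2, Pearson's r was 0.87 for Tagln (Spearman's rho 0.82), 0.87 for Myl9 (0.77), 0.68 for Tpm2 (0.55) and 0.64 for Tpm1 (0.54). Without rejuvenated old replicates 5 and 1, the libraries farthest from the median for Acta2, r was 0.81 for Tagln, 0.73 for Myl9, 0.51 for Tpm2 and 0.51 for Tpm1. For Cnn1, Smtn, Lmod1, Des and Myh11, r with Acta2 was 0.36, 0.32, 0.24, 0.18 and 0.07. Of the 45 pairs among the 10 genes, 36 had an r above 0, with a median of 0.24 and a range from -0.37 to 0.87. The same values over pairs of all genes are not given here, so these are not read as a trait of the 10 genes.

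Of 12203 genes compared in this way, the 5 most like Acta2 were Gnas (r = 0.90), Pelo (0.90), Cnn2 (0.90), Vegfd (0.88) and Wdr34 (0.88), with Tagln and Myl9 at ranks 6 and 7. Without those same 2 libraries their r was 0.84, 0.84, 0.81, 0.77 and 0.81. For Vegfd the likeness was one of pooled deviations from the group means, and r inside each group was not computed. The group means themselves were unlike, since Vegfd was higher in young than old MSCs (log2 difference 2.62) where Acta2 was lower. The libraries at the ends were shared: rejuvenated old replicate 5 was the highest of its group for 5 genes (Acta2, Tagln, Myl9, Tpm2 and Smtn), and rejuvenated old replicate 1 was the lowest for 4 (Acta2, Tagln, Myl9 and Des). Old replicate 1 was the highest for 6 and old replicate 2 the lowest for 6, and young replicate 4 was the lowest for 5.

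**Figure D5:**
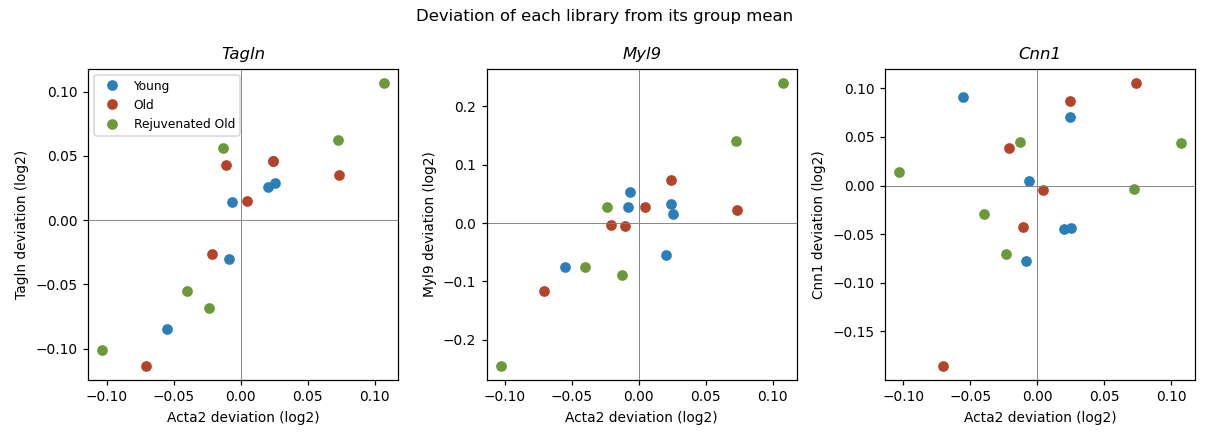
Deviation of each library from its group mean (log2 of the normalized count plus 1) for Acta2 (horizontal axis) against Tagln, Myl9 and Cnn1 (vertical axes, a separate scale for each), with 1 point per library (n = 18) coloured by group. Libraries with more Acta2 than their group tended to have more Tagln and Myl9 (r = 0.87 for each over all 18 libraries), and less so for Cnn1 (0.36). Some libraries went the other way for each gene.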

How the data were processed

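RNA of the 18 libraries was made into stranded mRNA libraries. The authors aligned reads to mm10 with HISAT2 and counted genes; per the labels the notes also name StringTie, featureCounts and DESeq2, and versions, annotation and strand setting are not given in the sources used here. The deposited values are a signal: counts divided by DESeq2 size factors. All values (100.0%) gave whole reads within 0.1 read, which gave the depths above. Log2 (value + 1) was fitted with limma 3.58.1 (trend, R 4.3.3) over all 3 groups for the 14353 genes averaging 10 or more, with Benjamini-Hochberg adjustment over all of them and a threshold of 0.05. A fold change on this scale understates the change of low genes. Alternatives included edgeR 4.0.16 and DESeq2 1.42.0 on the recovered reads, other scalings, filters and pseudocounts, centring by chromosome, a replicate block and leaving out each library. The fitting steps were tested on simulated data. Levels per kb used the summed exon lengths of GENCODE genes. Gene positions and promoters came from RefSeq (GRCm38.p6).

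Named genes were all 10 members, the relatives of each family, Srf, Myocd, Mkl1, Mkl2, Mylk, Cald1 and Vim, the 2 genes of each list with the largest called difference between rejuvenated old and old MSCs, and the 5 genes most like Acta2. The members and lists were chosen with earlier results of these data known. Y-linked genes, Xist, the chromosome neighbours, single markers and the genes of transforming growth factor beta signalling other than Tgfb2 were named after their values were seen.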

Additional observations from a re-analysis of the deposited data

Results flagged for a closer look

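In 1 of the 30 sets of 6 libraries (10 genes in 3 groups), a library stood apart from the rest of its group. Tpm1 in young replicate 3 was at 30327.84 normalized counts, and the other 5 young libraries ran from 29329.36 to 29696.94, so that the gap was 0.632 of the group's range. About 1 in 20 such sets would show such a gap by chance.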

How the results depend on the processing

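The 30 differences of the 10 genes were recomputed under 32 other settings. Leaving out any 1 of the 18 libraries changed 0 of 540 values in direction or call, and the other 14 settings changed 10 of 420. Of these, 8 were for Tpm1 or Acta2 under other scalings or a stricter threshold and 2 for Myh11 under centring by chromosome. Under centring by chromosome, Myh11 had a log2 fold change of 0.0347 for young minus old and -0.1151 for rejuvenated old minus young. Quantile normalization turned Tpm1 to -0.0515 for rejuvenated old minus young, put 1 contractile gene lower in rejuvenated old than old MSCs where the reported fit had 0 (Tpm1, -0.0865), and brought Acta2 past the threshold there (0.118, limma adjusted p = 0.00777). For the other changes in Tpm1 the cause was not tested. With a replicate block, 8 contractile genes were lower and 2 higher in young than old MSCs and 4 were higher in rejuvenated old than old, and it changed 0 of the 30 calls. Libraries with the same number correlated at -0.1517 to 0.0736 in their deviations, so no likeness by number was seen. The labels do not say whether libraries with the same number shared a culture or preparation, and these values cannot settle it. Among the 10 genes, depth limits Myh11 and, in young MSCs, Des, which had at most 80 and 35 reads per library.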
